A study of Mus musculus with 6 samples.

Results

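H19 and 9 further imprinted genes that act on growth were followed in 6 RNA-seq libraries from transplanted mouse mammary glands. The 10 genes were H19, Igf2, Igf2r, Dlk1, Meg3, Cdkn1c, Peg3, Plagl1, Mest and Grb10, of 34590 gene symbols in the count table, and all 10 passed the filter on low counts that left 17345 genes for testing. H19 was chosen by its higher counts in these same mutant glands, so its values are given as a description with no test. The other 9 genes were selected on their place beside H19 or their role in growth, with earlier results of these data known. In each of 3 WT host females, 3 weeks old at grafting, the left inguinal gland (gland number 4), cleared of its own epithelium, received WT.EGFP+ mammary epithelium and the right one received Adamts18-/-.EGFP+ epithelium. Adamts18 encodes a secreted protease of the extracellular matrix, and the mutant allele lacks exons 8 and 9. All grafts carried EGFP under the chicken β-actin promoter, the Adamts18-/- and EGFP lines were kept in the C57BL/6JOlaHsd background, and the stroma, vessels and fat around each graft belonged to the WT host. Each group held 3 glands. Genotype and body side cannot be told apart, the age at harvest is not given in the sources used here, and the donor of each graft is not named in the labels.

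Genomic imprinting marks a gene by the parent it came from, so that 1 of the copies is used and the other is kept silent. H19 makes a long noncoding RNA from the maternal copy, and its neighbour Igf2 makes insulin-like growth factor 2, a fetal growth factor, from the paternal copy. A control region between them binds CTCF on the unmethylated maternal chromosome and directs the enhancers that lie beyond H19 to H19 rather than to Igf2. Both genes are silenced in most tissues after birth, and H19 stays active in adult skeletal muscle. The maternally expressed Igf2r, Meg3, Cdkn1c and Grb10 mostly restrain growth, whereas the paternally expressed Dlk1, Peg3, Plagl1 and Mest belong to the fetal growth genes that are turned down as a young animal stops growing. The counts sum reads of both parental copies, and no strain difference between the parental copies is stated, so use of the maternal and the paternal copy was not measured.

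H19 is annotated as a lincRNA of 2460 exonic bases on the minus strand (GRCm38 chr7:142575529-142578143). It is also the host of miR-675, which is cut from a hairpin inside an exon. The hairpin is 84 bases long, lies at chr7:142577064-142577147 on the minus strand, and starts at base 997 of the annotated 2286-base transcript H19-202, in exon 1 of 5. The RefSeq sequences (GRCm38.p6) are shown 5′ to 3′ because H19 is the gene with the largest difference of the 10. The hairpin has both mature arms in capitals, and each mature form has its seed, bases 2 to 8, in capitals.
mir-675 hairpin: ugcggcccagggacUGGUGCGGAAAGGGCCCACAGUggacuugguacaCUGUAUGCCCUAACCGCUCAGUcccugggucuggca
mmu-miR-675-5p: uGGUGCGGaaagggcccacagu
mmu-miR-675-3p: cUGUAUGCccuaaccgcucagu
Igf2 and Mest hold a miRNA as well, miR-483 in Igf2 (5p arm at chr7:142654968-142654989, minus strand) and miR-335 in Mest (5p arm at chr6:30741314-30741336, plus strand), and neither 5p seed is that of an arm of miR-675.
mmu-miR-483-5p: aAGACGGGagaagagaagggag
mmu-miR-335-5p: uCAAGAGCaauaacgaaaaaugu
The table counts reads per gene symbol, and levels of the mature miRNAs were not measured. The table lists 0 reads for Mir675 in all 6 glands, which says nothing of its level, since all 84 bases of the hairpin lie inside an H19 exon on the same strand. The totals were 53875123 to 71595924 reads per gland, at which 3 reads stand at 0.0430 to 0.0574 CPM (counts per unit of library size, scaled by TMM).

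The sample labels describe sorted GFP-positive epithelial cells, whereas the study's text speaks of profiled glands, and the libraries are called glands here. The transcripts of other cell types were abundant. Summed CPM reached 7346 to 16859 for 8 adipocyte markers, 7133 to 9979 for 8 fibroblast markers and 506 to 881 for 7 endothelial markers, beside 1194 to 2356 for 16 pan-epithelial markers. All 16 pan-epithelial markers had a fitted value below 0 in the mutant glands, with a median log2 fold change of -0.38, and 4 of them (Krt7, Krt8, Krt18, Krt19) were lower by the study's thresholds, a log2 fold change under -0.32 with an unadjusted p under 0.05. Of 9 myoepithelial markers, 8 were lower past the thresholds, with a median of -0.54. Over all tested genes, 319 of 17345 (1.84%) were lower by these thresholds. In such bulk samples, fewer cells of a type and less RNA per cell cannot be told apart. Adamts18 itself was counted at 252, 608 and 383 reads in WT (mice 1, 2 and 3 in this order) and at 144, 295 and 202 reads in mutant glands. It was lower in 3 of 3 mice, with a log2 fold change of -0.83 (SE 0.19, edgeR unadjusted p = 0.00922, adjusted p = 0.987). The groups overlapped, with WT mouse 1 at 3.61 CPM and mutant mouse 2 at 4.87 CPM. The remaining reads are counted over the whole gene, not over the deleted exons. The study also reported stromal Adamts18 expression, seen by RT-PCR in WT fat pads that carried Adamts18-/- epithelium. The source of the remaining reads was not tested.

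H19 was higher in the Adamts18-/- gland of every mouse. In mice 1, 2 and 3 the WT gland held 1175, 1024 and 1341 H19 reads, or 16.8, 16.7 and 23.8 CPM. The mutant gland held 3577, 4840 and 4117 reads, or 68.4, 79.9 and 67.0 CPM. The lowest mutant gland lay well above the highest WT gland, so the groups did not overlap, as was the case for 856 of the 17345 tested genes (4.94%). The group means were 19.1 ± 4.07 CPM in WT and 71.7 ± 7.06 CPM in Adamts18-/- glands (SD, n = 3), and the fitted log2 fold change was 1.92 (SE 0.17). Within the mice the mutant gland held 4.06, 4.78 and 2.81 times the CPM of its WT partner, the last of these in mouse 3. The rise chose the gene, so no test is attached to it. For scale, 203 of 17345 genes (1.17%) were higher by the same thresholds in the other direction, a log2 fold change over 0.32, and 319 (1.84%) were lower. The p-values are from edgeR's quasi-likelihood fit, in which the mouse entered as a block.

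**Figure D1:**
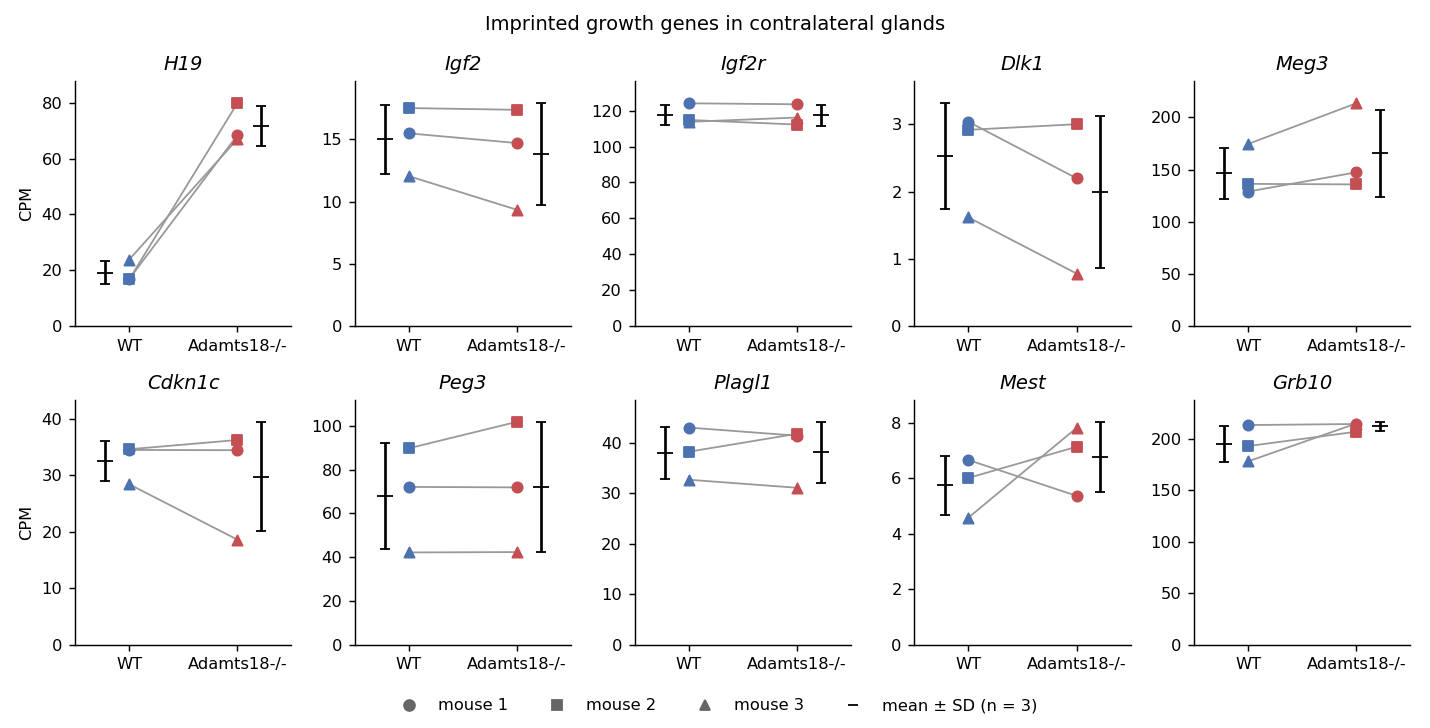
CPM of the 10 genes (vertical axes from 0, 1 scale per gene) in WT (blue) and Adamts18-/- (red) glands, with a grey line joining the glands of 1 mouse and bars for mean ± SD (n = 3). H19, which was chosen by its rise in the mutant glands, separates the groups, at 16.7 to 23.8 CPM in WT and 67.0 to 79.9 CPM in mutant glands. The points of the other 9 genes overlap.

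Igf2, the partner of H19 in the same domain, did not separate the genotypes. The WT glands held 1080, 1074 and 678 Igf2 reads, or 15.5, 17.5 and 12.0 CPM, and the mutant glands held 769, 1053 and 574 reads, or 14.7, 17.4 and 9.34 CPM. The groups overlapped widely, and the gland of mouse 3 was the lowest in each group. The fold between genotypes was 0.901, with a 95% interval of 0.730 to 1.11 (unadjusted p = 0.256, edgeR adjusted p = 0.987). The difference was small in mice 1 and 2, at -0.07 and -0.01 on the log2 scale, and reached -0.37 in mouse 3. The ratio of H19 to Igf2 reads within a gland, which needs no scaling between libraries, was 1.09, 0.953 and 1.98 in WT and 4.65, 4.60 and 7.17 in mutant glands. Mouse 3 had the highest ratio in each genotype, and the ratio rose 4.28, 4.82 and 3.63 times from the WT to the mutant gland of mice 1, 2 and 3. Per kb of exon, which allows levels to be set side by side between genes, Igf2 stood at 2.62 ± 0.484 CPM per kb in WT and 2.41 ± 0.715 CPM per kb in mutant glands, and H19 at 7.77 ± 1.65 and 29.2 ± 2.87 CPM per kb. Of its 5723 exonic bases, Igf2 shares 3596 with the protein-coding gene Gm49394 on the same strand, a GENCODE gene with no row of that symbol in the table used, and the treatment of such reads is not known. Igf2 also shares 98 exonic bases with the antisense gene Igf2as (Igf2os in the annotation) on the opposite strand, and the strand setting of the counting is not given in the sources used here. Igf2as itself held 4 to 18 reads per gland.

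Igf2r, the receptor that carries IGF2 to the lysosome for breakdown, had the smallest standard error of the 10 genes, 0.065 on the log2 scale. It held 124, 115 and 114 CPM in WT glands and 124, 112 and 116 CPM in mutant glands. These values overlapped almost fully, and the fold of 0.998 had a 95% interval of 0.887 to 1.12 (adjusted p = 0.9996). Grb10, an adaptor that damps insulin and IGF1 receptor signalling, held 213, 193 and 178 CPM in WT and 214, 207 and 215 CPM in mutant glands. It was slightly higher in the mutant gland of 3 of 3 mice, yet the groups overlapped and the fold of 1.09 had an interval of 0.928 to 1.28 (adjusted p = 0.987). Cdkn1c, which encodes the cell cycle inhibitor p57, held 34.5, 34.6 and 28.4 CPM in WT and 34.5, 36.3 and 18.6 CPM in mutant glands. The glands of mice 1 and 2 were alike, and the mutant gland of mouse 3 was the lowest of all 6, so that the fold of 0.883 had an interval of 0.663 to 1.18 (adjusted p = 0.987). Cdkn1c shares 625 exonic bases with an antisense gene, so reads of the pair cannot be told apart without strand.

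Dlk1 and Meg3 lie in a domain on chromosome 12 and are used from opposite parental copies. Dlk1, a membrane protein that holds back adipocyte differentiation, was the scarcest of the 10 genes, at 3.04, 2.92 and 1.62 CPM in WT and 2.20, 3.00 and 0.781 CPM in mutant glands. The difference was -0.46, 0.04 and -1.02 on the log2 scale in mice 1, 2 and 3, and the fold of 0.721 had a wide interval, 0.447 to 1.16 (adjusted p = 0.987). Meg3, a maternally expressed noncoding RNA, held 129, 136 and 174 CPM in WT and 147, 136 and 213 CPM in mutant glands. The glands of mouse 3 were the highest in each genotype, and the fold of 1.12 had an interval of 0.950 to 1.31 (adjusted p = 0.987). Meg3 shares 1228 of its 18089 exonic bases with the lincRNA gene Gm26906 on the opposite strand, so reads there cannot be told apart without strand. Rian, a noncoding RNA further along the same maternal chromosome that hosts snoRNAs and miRNAs, held 55.6, 58.6 and 93.4 CPM in WT and 72.4, 66.7 and 128 CPM in mutant glands. Its log2 fold change was 0.34 (SE 0.080, unadjusted p = 0.00946, adjusted p = 0.987). Rian was thus higher in 3 of 3 mutant glands and past the thresholds, although the groups overlapped because of mouse 3. Mirg, a miRNA host further along again, held 2.04, 2.19 and 3.52 CPM in WT and 1.97, 2.43 and 6.07 CPM in mutant glands and did not pass the thresholds (log2 fold change 0.30, SE 0.23, unadjusted p = 0.241).

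The Meg3 promoter is shown because Meg3, Rian and Mirg were all highest in mouse 3 in both genotypes. The RefSeq window of 250 bases before to 50 after the Meg3 start lies at chr12:109540746-109541045 (GRCm38.p6, plus strand), with letters matching a CRE half-site or a TATA box, on either strand, in capitals.
Meg3 promoter: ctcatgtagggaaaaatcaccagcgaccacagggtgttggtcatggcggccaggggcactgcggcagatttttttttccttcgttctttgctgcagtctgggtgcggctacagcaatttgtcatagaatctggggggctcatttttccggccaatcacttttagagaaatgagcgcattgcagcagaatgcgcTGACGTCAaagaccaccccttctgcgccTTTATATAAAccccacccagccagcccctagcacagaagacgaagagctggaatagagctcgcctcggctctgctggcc
The window holds 13 CpG pairs, 2 matches to TGACG that overlap on opposite strands, 2 matches to TATAAA and 0 matches to the GC box GGGCGG. Over 32851 promoter windows of the same length, 20.8% held TGACG, 13.6% held TATAAA and 35.7% held GGGCGG, and the median number of CpG pairs was 7.0. Promoter windows were found for 8 of the 10 genes, and TATAAA occurred in the Meg3 window alone among them. A match of letters is a description and not a bound site.

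The paternally expressed Peg3, Plagl1 and Mest also overlapped between the genotypes. Peg3, a zinc finger protein, held 72.1, 89.8 and 42.2 CPM in WT and 71.9, 102 and 42.3 CPM in mutant glands. The values of 1 mouse were close to each other and far from those of the other mice, and the fold between genotypes was 1.04 with an interval of 0.914 to 1.19 (adjusted p = 0.987). Plagl1, a zinc finger transcription factor that acts on other imprinted genes, held 43.1, 38.2 and 32.7 CPM in WT and 41.4, 41.8 and 31.1 CPM in mutant glands. Its fold was 1.0004, with an interval of 0.866 to 1.16 (adjusted p = 0.9998). Mest, a hydrolase-like protein linked to fat cell size, held 6.67, 6.02 and 4.58 CPM in WT and 5.37, 7.14 and 7.83 CPM in mutant glands. The differences ran from -0.31 in mouse 1 to 0.25 in mouse 2 and 0.77 in mouse 3, and the fold of 1.18 had an interval of 0.760 to 1.83 (adjusted p = 0.987). Mest shares 912 exonic bases with Copg2 on the opposite strand.

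Of the 9 genes other than H19, 0 passed either threshold, against 1.17% higher and 1.84% lower over all tested genes. By adjusted p under 0.05, 0 of 17345 genes (0%) passed in edgeR, with 670 at an unadjusted p under 0.05, and DESeq2 called 71. The intervals of Igf2r, Peg3 and Plagl1 lay inside the limits on the fold, and those of Igf2, Dlk1, Cdkn1c, Meg3, Mest and Grb10 reached past at least 1 of the limits, so a change of that size is not excluded for those genes. The order of levels per kb in WT glands was Grb10 (21.4 ± 1.95), Cdkn1c (16.0 ± 1.74), Igf2r (12.6 ± 0.611), Meg3 (8.10 ± 1.35), H19 (7.77 ± 1.65), Peg3 (5.11 ± 1.81), Plagl1 (4.86 ± 0.663), Igf2 (2.62 ± 0.484), Mest (1.46 ± 0.270) and Dlk1 (0.446 ± 0.140 CPM per kb). Meg3 did not differ from H19 beyond their spread, nor Peg3 from Plagl1. In mutant glands H19 stood above all the other 9 genes, next to Grb10 at 23.3 ± 0.493 CPM per kb.

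**Figure D2:**
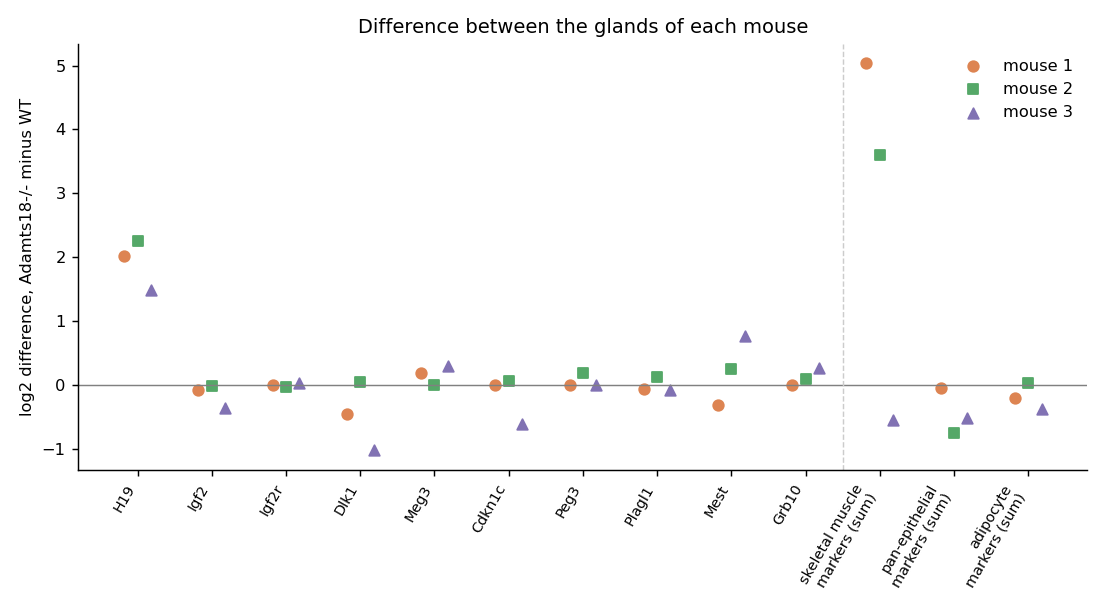
log2 difference in CPM between the mutant and the WT gland of each mouse (vertical axis) for the 10 genes and, right of the dashed line, for summed markers of skeletal muscle, epithelium and fat. H19 lies at 2.02, 2.26 and 1.49 in mice 1, 2 and 3, and the muscle sum is above 0 in mice 1 and 2 and below 0 in mouse 3.

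The summed skeletal muscle transcripts moved with H19 in mice 1 and 2 and against it in mouse 3. The summed level of 13 muscle markers (among them Acta1, Ckm, Ttn and Myog) was 328, 893 and 2753 CPM in WT (mice 1, 2 and 3) and 10762, 10778 and 1882 CPM in the mutant glands. The mutant gland thus held 32.8 and 12.1 times the muscle transcripts of its partner in mice 1 and 2, but 0.684 times in mouse 3. In that mouse H19 was still 2.81 times higher in the mutant gland. In WT glands H19 held 16.8, 16.7 and 23.8 CPM in mice 1, 2 and 3, highest where the WT muscle sum was highest. It did not rise from mouse 1 to mouse 2, where the WT muscle sum did. In mutant glands H19 held 68.4, 79.9 and 67.0 CPM. It was thus nearly alike in mice 1 and 3, whose mutant muscle sums were 10762 and 1882 CPM. All 11 muscle markers tested had a fitted value above 0, with a median log2 fold change of 2.75. Of them 2, Des and Myod1, were higher past the thresholds, beside 1.17% higher over all tested genes. These 2 went with H19 in mouse 3 as well, by less than in the other mice. The other 9 tested markers were lower in the mutant than in the WT gland of mouse 3. Des, the muscle intermediate filament gene, held 36.1, 40.4 and 58.0 CPM in WT and 197, 203 and 62.6 CPM in mutant glands. Myod1, a master regulator of the muscle lineage, was counted at 3, 3 and 7 reads in WT and 16, 31 and 15 reads in mutant glands. Neither gene overlapped between the groups, as was the case for 4.94% of all tested genes. The part of muscle in the H19 difference was not tested. Over the 6 glands, which come from 3 hosts, log2 H19 and the log2 muscle sum had r = 0.823. H19 was chosen by its rise in the mutant glands, and the muscle sum was also higher in those of mice 1 and 2. This r is thus partly set by the choice of H19. It is not on a par with the r of the other 9 genes, between -0.271 and 0.135. These are descriptions. The fitted H19 value was 2.15 without mouse 3 and 1.76 without mouse 2.

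**Figure D3:**
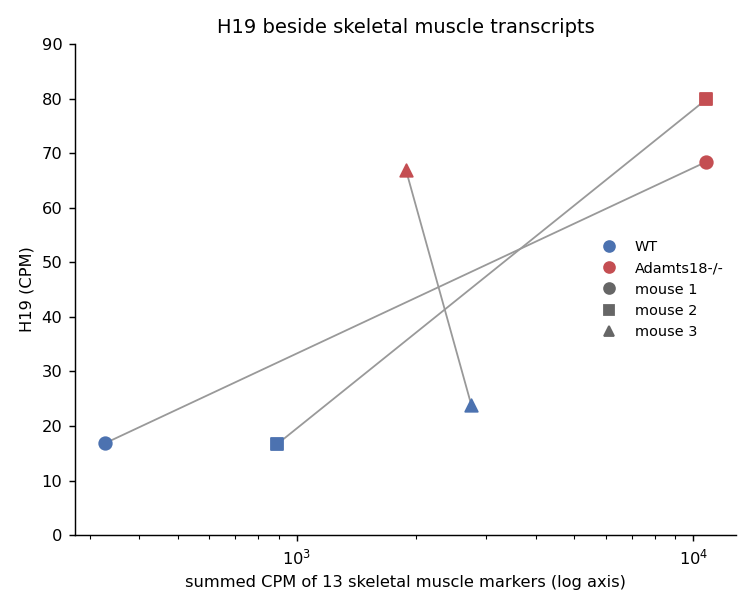
H19 (CPM, vertical axis) against the summed CPM of 13 skeletal muscle markers (log axis) in WT (blue) and Adamts18-/- (red) glands, with a line joining the glands of 1 mouse. The lines of mice 1 and 2 rise to the right, and that of mouse 3 rises to the left, from 23.8 CPM of H19 at 2753 CPM of muscle markers in WT to 67.0 CPM at 1882 CPM in the mutant gland.

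The genes that flank H19 on chromosome 7 fell into 2 kinds. Nctc1, a noncoding RNA that starts 19.5 kb beyond the H19 start in the direction of H19 transcription, held 17, 39 and 110 reads in WT and 331, 589 and 87 reads in mutant glands. The troponin genes Tnnt3 (79.3 kb) and Tnni2 (136.3 kb), of fast skeletal muscle, showed the same pattern. Tnnt3 held 25.5, 76.7 and 253 CPM in WT and 938, 972 and 184 CPM in mutant glands. All 3 were higher in the mutant glands of mice 1 and 2 and lower in that of mouse 3, like the muscle sum, and none passed the thresholds (log2 fold change 2.82 for Nctc1, 3.05 for Tnnt3 and 3.02 for Tnni2, adjusted p = 0.987 for each). H19 shared this pattern in mice 1 and 2 only.

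The remaining neighbours, which are not muscle genes, stayed near 0 or were scarce. The mitochondrial ribosome gene Mrpl23, 45.5 kb from H19, held 15.4 to 17.2 CPM in all 6 glands. The leukocyte gene Lsp1 (117.3 kb) held 177 to 320 CPM with a log2 fold change of 0.20, and the lysosomal protease gene Ctsd (190.1 kb) held 878 to 1140 CPM with -0.04. Syt8 (143.3 kb) and Ascl2 (-391.1 kb, on the Igf2 side) were under 1 CPM, with log2 fold changes of 0.67 (unadjusted p = 0.138) and -0.29 (unadjusted p = 0.287). Ins2, Th and Mir483, on the Igf2 side, held 0 to 2 reads per gland. Of the 9 neighbours tested besides H19, Igf2 included, 0 passed the thresholds, beside the shares over all genes given above. The distances are those of GRCm38 (GENCODE M21), a later build than the mm9 that the submitters' processing notes name, and no coordinate was joined to the counts.

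**Figure D4:**
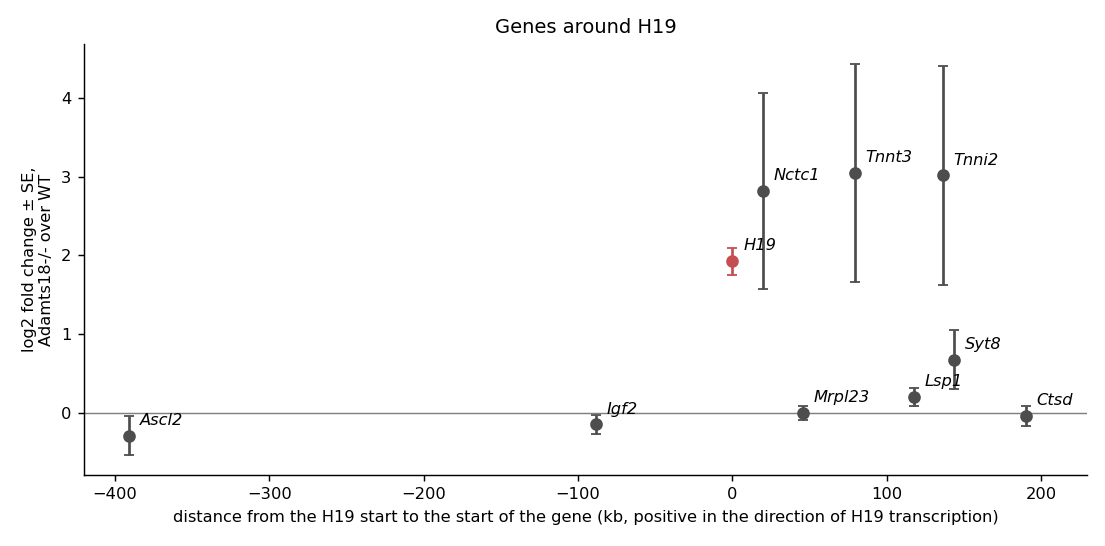
Fitted log2 fold change ± SE (vertical axis) of H19 (red) and the 9 tested genes around it, by the distance of each start from that of H19 in kb. H19, which was chosen by its rise in this contrast, lies at 1.92 (SE 0.17). Nctc1, Tnnt3 and Tnni2 lie between 2.82 and 3.05 with wide errors, and Igf2, Mrpl23, Lsp1 and Ctsd lie near 0.

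The wider list of imprinted genes showed no common direction between genotypes. It held 77 genes besides H19, of which 71 were in the table and 62 were tested, and it includes the other 9 genes described above. Of the 62, 2 were higher (Rian and Tfpi2), 1 was lower (Phlda2) and 59 did not pass, against 1.17% higher and 1.84% lower over all genes. The median log2 fold change was -0.02, beside 0.00065 over all tested genes, with 27 values above 0 and 35 below. In 5 of the 62 the groups did not overlap, against 4.94% of all tested genes. Tfpi2, a protease inhibitor of the extracellular matrix, held 7.04, 5.40 and 6.36 CPM in WT and 8.28, 7.31 and 11.5 CPM in mutant glands. Every mutant gland was above every WT gland, and the log2 fold change was 0.51 (SE 0.17, unadjusted p = 0.0314, adjusted p = 0.987). Phlda2, a brake on placental growth in the same imprinted domain as Cdkn1c, was counted at 16, 17 and 23 reads in WT and 8, 9 and 13 reads in mutant glands. It was lower in 3 of 3 mice, with a log2 fold change of -0.82 (SE 0.29, unadjusted p = 0.0374, adjusted p = 0.987), at a level of only 0.149 to 0.409 CPM. Kcnq1ot1, Zim2, Zim3, Zfp264, Snurf and Peg13 were not analysed here.

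Rian, Tfpi2 and Phlda2 each differed in the same direction in 3 of 3 mice, but their calls did not hold in every fit with a mouse left out. Such a fit has less power, so a lost call does not show which mice carried it. Rian did not pass without mouse 1 or without mouse 3, Tfpi2 did not pass without mouse 2 or without mouse 3, and Phlda2 did not pass when any 1 mouse was left out. Whether the listed genes were used from 1 parental copy in these glands was not measured. The most abundant genes of the imprinted list per kb were the matrix proteoglycan gene Dcn, at 381 CPM per kb over the 6 glands, then the membrane proteolipid gene Nnat (249), the tetraspanin gene Cd81 (107), the G protein gene Gnas (73.8) and the histone chaperone gene Nap1l4 (36.9 CPM per kb). None of these 5 passed the thresholds between genotypes, and Nap1l4 was 1 of the genes whose groups did not overlap, at 108 to 113 CPM in WT and 114 to 121 CPM in mutant glands.

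Several of the 10 genes differed more between the 3 mice than between the genotypes. By the study's text the 3 pairs came from separate experiments with different donors, so host, graft donor and experiment cannot be told apart in a difference between mice. In both genotypes Igf2, Dlk1, Cdkn1c, Peg3 and Plagl1, 5 of the 10, were lowest in mouse 3, and Meg3 was highest there. The mean CPM of mouse 3 over the mean of mice 1 and 2 was 0.503 for Peg3, 0.430 for Dlk1, 0.657 for Igf2, 0.673 for Cdkn1c, 0.776 for Plagl1 and 1.42 for Meg3, whereas it was 0.999 for H19, 0.985 for Mest, 0.969 for Igf2r and 0.950 for Grb10. A test of the mouse term of the same edgeR fit was added after the data were seen. It gave an adjusted p of 0.0476 for Peg3, 0.0957 for Meg3, 0.103 for Igf2, 0.128 for both Dlk1 and Plagl1, 0.185 for Cdkn1c and 0.665 for H19. Thus 1 of 10 genes passed, against 0.628% of all tested genes (109 of 17345). Over the 62 other imprinted genes 2 passed, Peg3 and Nnat. Nnat averaged 570 CPM in mouse 1, 754 in mouse 2 and 42.0 in mouse 3 (adjusted p = 0.0187), a 17.9-fold range between mice that both glands of a mouse shared.

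Other transcripts differed by mouse in the same libraries. The adipocyte sum was 9523 CPM in the WT and 7346 CPM in the mutant gland of mouse 3, and 14552 to 16859 CPM in the glands of mice 1 and 2. The endothelial sum was 583 and 506 CPM in mouse 3 and 707 to 881 CPM in the others. The sum of 4 B cell markers ran the other way, at 114 CPM in the WT and 519 CPM in the mutant gland of mouse 3 against 8.07 to 13.1 CPM in mice 1 and 2. The part of these cell types in the differences between mice of Peg3, Igf2, Dlk1, Cdkn1c and Meg3 was not tested.

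**Figure D5:**
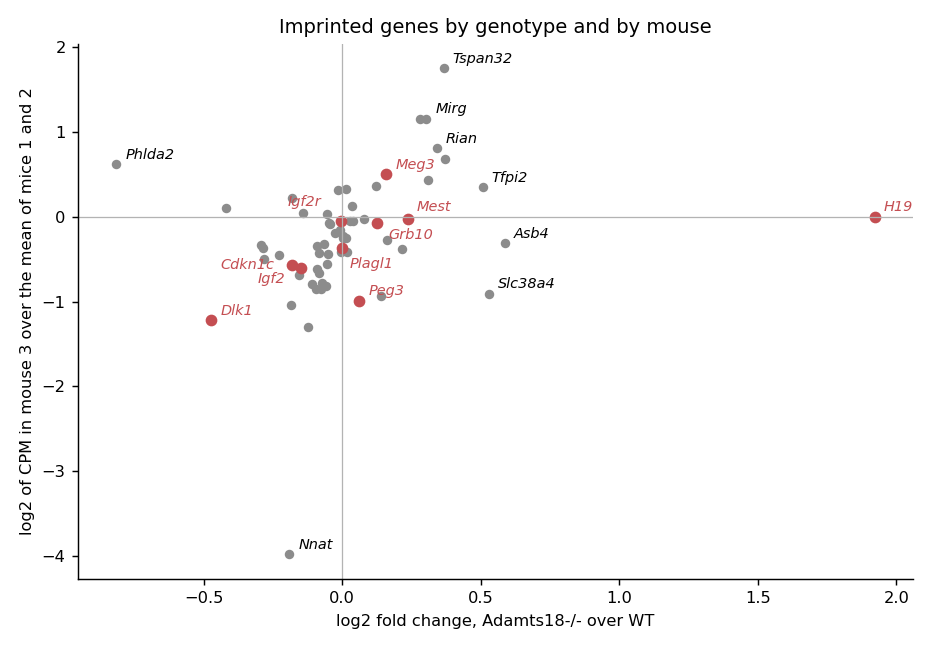
Each tested imprinted gene by its fitted log2 fold change between genotypes (horizontal axis) and by the log2 ratio of its mean CPM in mouse 3 to that in mice 1 and 2 (vertical axis), with the 10 genes of the report in red. H19, which was chosen by its rise in the mutant glands, lies alone at the right, at 1.92 and near 0 on the mouse axis. Dlk1, Peg3, Igf2 and Cdkn1c lie low, Meg3 and Rian lie high, and Nnat is far below the rest.

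Across the 6 glands the levels of several of the 10 genes ran together or in opposition, as a description. The glands came in pairs from 3 hosts, so they are not independent. The log2 CPM of Igf2 and Dlk1 had r = 0.975, that of Dlk1 and Cdkn1c 0.974, that of Igf2 and Cdkn1c 0.951 and that of Igf2 and Peg3 0.932. Meg3 ran opposite to Dlk1 (r = -0.990) and to Igf2 (r = -0.960). H19 and Igf2 had r = -0.259. The 5 tested genes whose pattern was most like that of Igf2 were Eltd1, Timp3, Hspa12b, Gas6 and Tgfbr3, with r from 0.998 to 0.999. They were picked over 17345 genes by r, so their high r comes in part from that choice. All 5 were lowest in mouse 3 in both genotypes, as Igf2 was. Eltd1, an adhesion receptor of endothelium, held 81.0, 101 and 53.3 CPM in WT and 75.6, 104 and 34.9 CPM in mutant glands. The 5 most like H19 were Phtf2 (r = 0.997), Tbx1 (0.990), Ptp4a3 (0.984), Cdh4 (0.978) and Taco1 (0.975), which were picked over 17345 genes for a pattern that separates the genotypes. Phtf2 held 17.9, 17.3 and 19.8 CPM in WT and 29.9, 31.5 and 28.2 CPM in mutant glands.

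Genes for proteins that set or keep imprints did not pass the thresholds. Of 15 listed genes, 14 were tested and 0 passed, beside 1.17% higher and 1.84% lower over all tested genes. The median log2 fold change was 0.09, with 12 values above 0 and 2 below. Ctcf, whose protein binds the control region between Igf2 and H19, held 77.2, 84.5 and 78.8 CPM in WT and 83.2, 80.7 and 102 CPM in mutant glands (log2 fold change 0.14, SE 0.10, unadjusted p = 0.247). The values for Trim28, the corepressor that guards imprints, the DNA methyltransferase gene Dnmt3a and the demethylase gene Tet3 lay between 0.01 and 0.06, and that for Smchd1, a chromatin silencer, was 0.18, with unadjusted p from 0.314 to 0.887. Smchd1 differed by -0.04, -0.05 and 0.63 on the log2 scale in mice 1, 2 and 3, so its positive value came from mouse 3. DNA methylation itself was not measured.

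Among 15 partners of IGF signalling, 13 were tested and 0 passed, beside 1.17% higher and 1.84% lower over all tested genes. The median log2 fold change was -0.10, with 3 values above 0 and 10 below. Igf1, the postnatal growth factor that shares a receptor with IGF2, held 222, 187 and 157 CPM in WT and 212, 216 and 132 CPM in mutant glands (log2 fold change -0.04, unadjusted p = 0.756). The binding protein genes Igfbp5, Igfbp4, Igfbp7 and Igfbp6 were the most abundant of the list, with log2 fold changes of -0.41, -0.15, -0.16 and 0.06 and unadjusted p from 0.167 to 0.762. Igfbp5 held 2316, 1947 and 1785 CPM in WT and 2391, 2137 and 659 CPM in mutant glands, so its negative value came from mouse 3. Igfbp3 held 138, 149 and 116 CPM in WT and 120, 125 and 86.8 CPM in mutant glands, lower in 3 of 3 mice, and its fold of 0.816 (unadjusted p = 0.0148, adjusted p = 0.987) lay just inside the lower limit on the fold, 0.8. Igfbp2 went the other way, at 1.29, 4.08 and 3.66 CPM in WT and 7.46, 4.14 and 5.24 CPM in mutant glands, and was the 1 gene of the list whose groups did not overlap (log2 fold change 0.98, SE 0.54, unadjusted p = 0.132, adjusted p = 0.987), against 4.94% of all tested genes. Igfbp3 and Igfbp2 were named after their values were seen.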

How the data were processed

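The values deposited by the authors are raw counts of reads on each gene symbol in the 6 glands, from single-end reads of 85 bases. The submitters' processing notes name bcl2fastq 2.18, TopHat2 2.0.11, featureCounts 1.6.2, edgeR and the mouse build mm9. The annotation and the strand setting are not given in the sources used here. The table lists 34590 symbols, and 0 columns belong to other samples.

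The fit used edgeR 4.0.16 under R 4.3.3, with TMM factors, filterByExpr and the quasi-likelihood test, genotype as the tested term and mouse as a block. Benjamini-Hochberg adjustment ran over 17345 genes. Calls used the study's thresholds, a fold change over 1.25 or under 0.8 with an unadjusted p under 0.05. TMM factors lay between 0.958 and 1.05, and the median biological coefficient of variation was 16.3%. The log2 CPM values used a prior count of 2. CPM per kb used merged exon lengths from GENCODE M21 (GRCm38), found for 29206 symbols. The labels number the glands by mouse, and deviations from the group means correlated at 0.510, 0.503 and 0.638 within mice 1, 2 and 3. The test of the mouse term was added after the data were seen. Scripts were tested on simulated data.

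The 10 genes, the lists and the tests were chosen with earlier results of these data known. The genes named were the 10, all neighbours of H19, imprinted genes past the thresholds or among the 5 most abundant per kb, the 5 most abundant genes of the imprint maintenance and IGF lists, and the 5 genes most like H19 and most like Igf2. Mirg, Igfbp3, Igfbp2, the values of Nnat by mouse and the single markers were picked out with their values in view. Alternatives were a fit without the block, DESeq2 1.42.0, RLE, library size and pan-epithelial scaling, no filter on low counts, at least 10 counts in every library, each mouse left out in turn, and calls by adjusted p.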

Additional observations from a re-analysis of the deposited data

How the results depend on the processing

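The log2 fold change of H19 stayed between 1.76 (without mouse 2) and 2.36 (scaled to pan-epithelial markers) over 10 alternatives. Scaling to the pan-epithelial markers raised the median of all genes by 0.44. On that scale the value was 0.29 for Igf2, 0.44 for Igf2r and 0.26 for Cdkn1c, each of the opposite sign to the main fit, and Mest passed the thresholds at 0.68 (unadjusted p = 0.0429, adjusted p = 0.341, lowest of its alternatives). With a mouse left out, values of either sign were reached by Igf2r (-0.011 to 0.012), Cdkn1c (-0.31 to 0.040), Plagl1 (-0.064 to 0.045) and Mest (-0.022 to 0.51), where mouse 2 turned the sign of Igf2r and Plagl1 and mouse 3 that of Cdkn1c and Mest. Plagl1 also fell below 0 with library size scaling (-0.025) and with no filter (-0.0078). By adjusted p under 0.05, 0 of the 9 genes other than H19 passed in any of the 10 alternatives, among them the pan-epithelial scaling with 364 calls over all genes and the fit without mouse 3 with 268.

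Over all genes, 203 higher calls became 340 with DESeq2, 2099 with pan-epithelial scaling, 352 with no filter and 182 to 581 with a mouse left out, and 319 lower calls became 125 with no replicate block, 31 with pan-epithelial scaling and 214 to 481 with a mouse left out. By adjusted p both counts were 0. Of the imprinted genes, the 2 higher calls became 0 with no replicate block or by adjusted p, 1 with library size scaling, 11 with pan-epithelial scaling and 1 to 2 with a mouse left out, where the 2 without mouse 3 were Asb4 and Slc38a4 and not Rian and Tfpi2. The 1 lower call became 0 with no replicate block, DESeq2, pan-epithelial scaling, no filter, at least 10 counts in every library or by adjusted p, and 0 to 1 with a mouse left out, where the 1 without mouse 2 was Dio3 and not Phlda2. The replicate block changed no call of the 9 genes. The cause of these shifts was not tested. Of the 10 genes, Dlk1 had the lowest depth, at 48 to 212 reads per gland.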
